A study of Homo sapiens with 18 samples.

Results

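The sites described here are the anti-Flag CUT&RUN peaks of a tagged AML1-ETO Kasumi-1 cell line, in control cells and after miR-130a knockdown. Every peak of both anti-Flag lists was used, which gave 23162 control and 25961 knockdown peaks, or 49123 of the 85981 peaks in the 4 single-antibody lists (anti-Flag and anti-ETO, in each condition). Joined where they overlapped, the Flag peaks made 33087 regions, against 35622 for all 4 lists. A control peak that shared at least 1 bp with a knockdown Flag peak was called kept, and one that shared none was called lost. A knockdown peak with no control Flag peak under it was called gained. Lost and gained describe whether a peak was listed, not how much signal lay there, because the lists carry positions and no heights.

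AML1-ETO is the fusion protein made by the t(8;21) translocation of acute myeloid leukaemia. It joins the DNA-binding Runt domain of RUNX1 (AML1) to most of RUNX1T1 (ETO), a protein that binds corepressor complexes such as NCoR with histone deacetylases, and it is known for repressing myeloid differentiation genes in leukaemic blasts. Kasumi-1 is an established myeloid line that carries this fusion. miR-130a is a microRNA, a short RNA that lowers the output of messenger RNAs it pairs with. In CUT&RUN an antibody tethers a nuclease that cuts and frees the DNA around its target.

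Both anti-Flag groups, the control and the miR-130a knockdown, were cultures of the Flag-tag AML1-ETO Kasumi-1 line. Cells were transduced, sorted as viable and GFP-positive 3 days later, and used for anti-Flag, anti-ETO and IgG profiles. Each group held 3 libraries of 75-bp paired reads, with a planned depth of about 40 M reads. Each group was deposited as 1 peak list, so no spread between libraries can be given, and the intervals below are 95% intervals for counting error over peaks alone. Neighbouring peaks are not independent, so these intervals are too narrow as a measure of what another experiment would give. Whether the tag sits on the cell line's own fusion allele is not said by the labels.

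Promoters of list genes are printed here to show the sequence at starts met by a kept, a lost or a gained Flag peak. Each is a RefSeq window of 300 bases around a gene start (GRCh38.p14), written 5′ to 3′ on the gene's strand, with the RUNX core letters TGTGGT, or ACCACA where they lie on the other strand, in capitals. The pair with the most RUNX letters was taken from each class, with ties in alphabetical order. The first pair held kept peaks. BATF (chr14:75522219-75522518, plus strand), an AP-1 family factor, lay under a control peak of 559 bp and a knockdown peak of 346 bp. BCL2 (chr18:63319720-63320019, minus strand), the anti-apoptotic protein, lay under peaks of 1098 bp and 882 bp.
BATF: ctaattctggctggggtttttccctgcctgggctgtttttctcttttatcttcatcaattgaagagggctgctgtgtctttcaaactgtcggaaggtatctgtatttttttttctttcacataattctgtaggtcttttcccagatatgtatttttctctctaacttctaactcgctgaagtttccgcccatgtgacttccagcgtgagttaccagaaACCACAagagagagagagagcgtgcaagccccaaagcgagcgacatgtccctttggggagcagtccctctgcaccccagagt
BCL2: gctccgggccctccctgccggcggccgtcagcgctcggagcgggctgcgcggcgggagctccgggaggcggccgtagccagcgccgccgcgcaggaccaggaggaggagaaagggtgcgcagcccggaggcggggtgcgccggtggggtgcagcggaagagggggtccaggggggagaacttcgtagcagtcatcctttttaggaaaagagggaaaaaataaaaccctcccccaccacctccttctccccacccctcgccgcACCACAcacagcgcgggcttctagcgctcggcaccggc
The second pair met a Flag peak in control only. One start of SMAD3 (chr15:67098429-67098728, plus strand), a mediator of TGF-beta signals, lay within a control peak of 436 bp, while another SMAD3 start had a kept peak. The window of BCL2L1 (chr20:31723914-31724213, minus strand), a survival gene related to BCL2, was met at its edge by a control peak of 195 bp (chr20:31723736-31723930).
SMAD3: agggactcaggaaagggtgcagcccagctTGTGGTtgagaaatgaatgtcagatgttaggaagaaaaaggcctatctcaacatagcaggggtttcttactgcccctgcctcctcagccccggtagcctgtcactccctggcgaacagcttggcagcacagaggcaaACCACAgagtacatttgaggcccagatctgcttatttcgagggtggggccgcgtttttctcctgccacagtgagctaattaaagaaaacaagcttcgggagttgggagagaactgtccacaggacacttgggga
BCL2L1: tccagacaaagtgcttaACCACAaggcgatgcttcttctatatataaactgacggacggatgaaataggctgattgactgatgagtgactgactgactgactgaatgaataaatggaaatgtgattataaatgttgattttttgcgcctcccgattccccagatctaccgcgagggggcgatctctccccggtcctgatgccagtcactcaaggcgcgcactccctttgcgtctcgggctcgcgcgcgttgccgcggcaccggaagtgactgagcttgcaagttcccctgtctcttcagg
The third pair met a Flag peak in knockdown only. One start of SIN3B (chr19:16863024-16863323, plus strand), a scaffold of histone deacetylase complexes, was met by a peak of 198 bp. AZU1 (chr19:827587-827886, plus strand), which encodes the neutrophil granule protein azurocidin, was met by a peak of 1616 bp.
SIN3B: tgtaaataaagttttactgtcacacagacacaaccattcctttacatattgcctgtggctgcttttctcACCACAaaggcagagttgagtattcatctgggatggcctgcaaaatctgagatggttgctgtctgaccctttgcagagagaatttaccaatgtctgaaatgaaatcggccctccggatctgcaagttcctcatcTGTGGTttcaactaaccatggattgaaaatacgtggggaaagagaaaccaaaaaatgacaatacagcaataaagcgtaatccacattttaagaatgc
AZU1: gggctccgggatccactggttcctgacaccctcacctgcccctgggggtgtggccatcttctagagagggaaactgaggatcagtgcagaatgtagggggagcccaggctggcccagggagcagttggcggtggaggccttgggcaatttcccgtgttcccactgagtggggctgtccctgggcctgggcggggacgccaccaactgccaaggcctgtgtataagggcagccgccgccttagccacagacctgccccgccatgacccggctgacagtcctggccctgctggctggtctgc
The RUNX letters occurred once in BATF, BCL2 and BCL2L1 and on both strands in SMAD3 and SIN3B, and AZU1 held none. They lay inside the Flag peak in BATF, BCL2 and SMAD3. In SIN3B the first match lay inside the peak and the second outside it, and in BCL2L1 the match lay outside the peak.

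Across all windows the RUNX letters did not set the classes apart. They were found on either strand in 10.7% of the 5761 windows with a kept peak, 10.1% of the 2012 with a lost peak alone and 11.9% of the 427 with a gained peak alone. All 34961 windows held them in 13.1% and the 26736 windows without a Flag peak in 13.8%. The ETS letters CCGGAA were in 28.0% of kept, 31.5% of lost and 28.8% of gained windows, against 17.3% of all windows. The GC box letters GGGCGG were in 77.4%, 73.3% and 66.3%, against 45.0% of all. AP-1 letters TGANTCA went the other way, with 3.54%, 3.43% and 4.45% against 7.68%. The E-box CAGCTG (17.2%, 16.3% and 18.3%, against 18.0%) and CCAAT (35.3%, 33.9% and 31.9%, against 34.6%) lay close to their shares in all windows. Base composition moved with these shares: the median GC content was 68% in kept, 66.3% in lost and 64% in gained windows, against 58.7% in all, and its part in them was not tested. Both strands were searched for each motif, and the windows hold promoters alone, not the peaks elsewhere.

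Of the 23162 control Flag peaks, 14390 were kept (62.1%, 61.5 to 62.8) and 8772 were lost (37.9%). Of the 25961 knockdown peaks, 15381 were kept (59.2%) and 10580 were gained (40.8%, 40.2 to 41.4). These 2 shares are the background against which genes and regions are read below. Most overlaps were one to one: 12931 control peaks met 1 knockdown peak and 1459 met 2 or more. The 16036 overlapping pairs shared a median of 365 bp, and 3.02% of them shared under 100 bp. Counted as joined regions, 41.5% were kept, 26.5% lost and 32.0% gained.

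Lost and gained peaks were narrow. The median width was 533 bp for kept control peaks and 317 bp for lost ones, and 452 bp for kept knockdown peaks and 289 bp for gained ones. Widths of at least 1 kb were found in 21.4% of kept control peaks but 1.11% of lost peaks, and in 15.6% of kept knockdown peaks but 1.13% of gained peaks. A wide peak has more bases with which to meet another, so width and class are tied in part by the overlap rule. With each list cut by width into 5 equal groups, 62.1% of the narrowest control peaks were lost and 5.81% of the widest. In the knockdown list the gained share was 59.4% in the narrowest group and 9.65% in the widest.

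The widest sites were present in both conditions. The widest kept control peak, of 10957 bp, lay in BAHCC1 (chr17:81419957-81430913), and another of 5913 bp covered the start of PTCH1, the Hedgehog receptor (chr9:95505961-95511873). A kept peak of 5580 bp spanned NFKBID, HCST and TYROBP (chr19:35900187-35905766), the last of which encodes a signalling adaptor of myeloid and NK cells. The widest lost peak, of 1927 bp, overlapped NAA50 and ATP6V1A (chr3:113746028-113747954), 49843 bp from the nearest knockdown Flag peak. A lost peak of 1717 bp at RWDD4 lay 218 bp from a knockdown peak, so a lost call there means a nearby site and not an empty locus. Gained peaks reached 2701 bp (chr8:144119254-144121954), 675 bp from a control peak. A gained peak of 1644 bp lay inside ABCA3, a lipid transporter gene (chr16:2328247-2329890), 5753 bp from the nearest control peak.

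Lost and gained peaks differed in where they lay. A gene start lay within 1 kb of the centre of 41.1% of kept control peaks and 33.8% of lost peaks (2867 of 8490, 32.8 to 34.8), but of 10.9% of gained peaks (1095 of 10019, 10.3 to 11.6). The difference, gained minus lost, was -22.8 percentage points (-24.0 to -21.7). The median distance to a start was 2157 bp for kept control, 4062.5 bp for lost and 8854 bp for gained peaks. Gained peaks were instead found 2.5 to 10 kb from a start (32.8%, against 19.8% of lost) and 10 to 50 kb from one (40.3%, against 27.3%). Beyond 50 kb the order turned, with 8.81% of lost and 5.90% of gained peaks. The lower share of gained peaks near starts held in each of the 5 width groups, at 8.53% to 12.2% of gained against 29.4% to 41.1% of lost peaks.

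**Figure D1:**
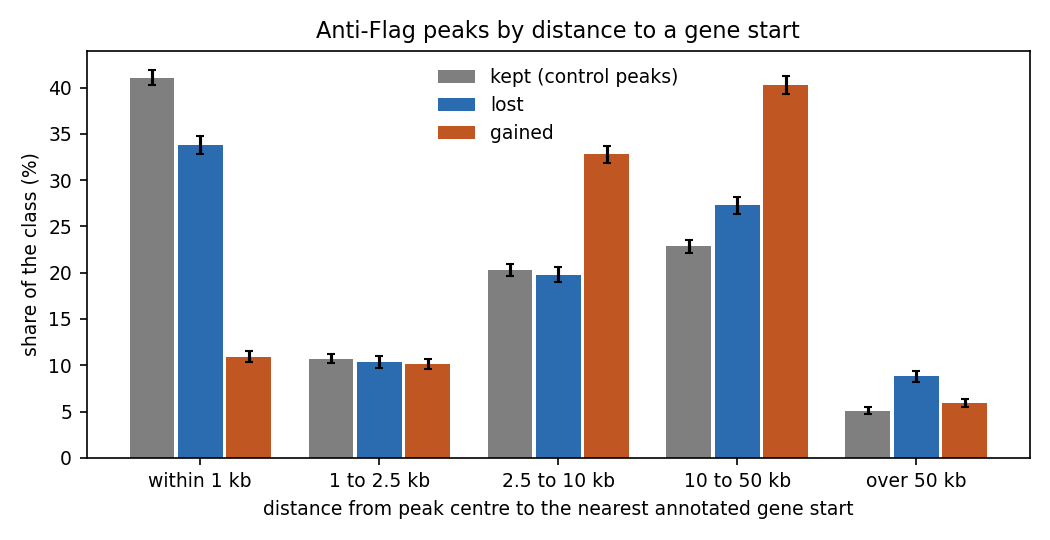
Share of Flag peaks (percent) by distance from the peak centre to the nearest RefSeq gene start, for kept, lost and gained peaks, with 95% Wilson intervals and without chromosome 8. Gained peaks are few within 1 kb (10.9%) and most frequent at 10 to 50 kb (40.3%), while 33.8% of lost peaks lie within 1 kb.

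Gained peaks lay mostly within genes, away from the gene starts and ends used here. Sites in a gene but over 1 kb from any start or end used made up 56.4% of gained, 41.8% of lost and 35.9% of kept control peaks. Starts and ends came from 27195 genes of the 59098 in RefSeq. A site at the edge of another gene was therefore counted as elsewhere in a gene. Sites outside genes made up 27.8%, 20.8% and 18.8%. Read the other way, 33.8% of control peaks near a start were lost and 15.1% of knockdown peaks near a start were gained, whereas elsewhere in genes 41.9% were lost and 51.9% gained. Outside genes the shares were 40.7% lost and 50.9% gained.

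Peaks called by the second antibody were less often lost or gained. Anti-ETO recognises the ETO portion of the fusion and so also untagged protein. A control anti-ETO peak overlapped 68.4% of kept control Flag peaks and 39.6% of lost ones, a difference of 28.7 percentage points (27.5 to 30.0). A knockdown anti-ETO peak overlapped 89.5% of kept knockdown Flag peaks and 24.7% of gained ones, a difference of 64.8 points (63.8 to 65.8). Kept peaks were also wider, and a wide peak has more bases with which to meet an anti-ETO peak. In the wider 50% of each list the differences were 15.4 points (13.8 to 17.1) in control and 45.3 (43.9 to 46.7) in knockdown. The part of width in them was not tested. The anti-ETO lists differed in length, with 14264 control and 22594 knockdown peaks, so shares across conditions are not on one footing.

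Many lost Flag sites still had an anti-ETO peak in the knockdown. Of the 8772 lost peaks, 50.6% overlapped a knockdown anti-ETO peak, 31.7% overlapped anti-ETO peaks of both conditions, and 7.96% overlapped one in control alone. Neither anti-ETO list covered 41.5% of them. Of the 10580 gained peaks, 75.1% were covered by neither list and 21.0% by the knockdown list alone, and 3.90% overlapped a control anti-ETO peak. Near gene starts, 26.1% of control Flag peaks with an anti-ETO peak were lost, and 62.1% of those without. For gained peaks near starts the shares were 10.9% and 74.5%.

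**Figure D2:**
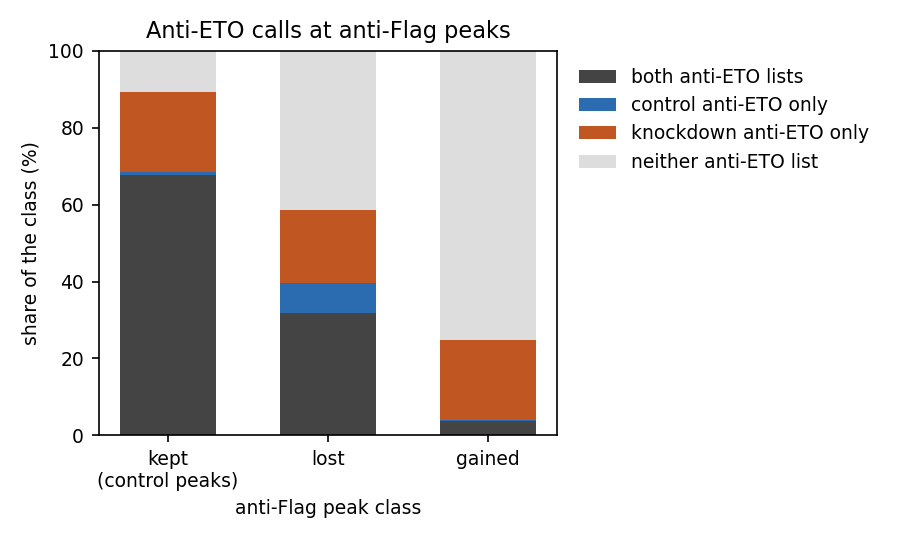
Share of Flag peaks (percent) in each class by overlap of at least 1 bp with the anti-ETO lists of control and knockdown. Gained peaks stand out with 75.1% covered by neither list, against 41.5% of lost and 10.8% of kept control peaks.

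Gained peaks lay close to other Flag peaks, about as often as kept knockdown peaks did at 10 kb and less often at 1 kb. Another peak of the same list lay within 10 kb of 84.6% of kept control, 66.5% of lost, 85.4% of kept knockdown and 85.2% of gained peaks. The difference, lost minus gained, was -18.7 percentage points (-19.8 to -17.5), with each class read against its own list. Within 1 kb the shares were 57.2% of kept control, 38.4% of lost, 63.7% of kept knockdown and 41.9% of gained peaks. Of the gained peaks, 78.8% lay within 10 kb of a control Flag peak and 96.9% within 50 kb. Of the lost peaks, 58.5% lay within 10 kb of a knockdown Flag peak and 75.6% within 50 kb. At 0.5 kb the order was the opposite, with 21.5% of lost and 17.9% of gained peaks. The 90th percentile of the gap was 244667 bp for lost peaks and 19982 bp for gained peaks. Among regions in order along a chromosome, a gained region was followed or preceded by another gained one in 45.0% of cases, where gained regions were 32.0% of all. For lost regions the share was 37.9%, where they were 26.5% of all.

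**Figure D3:**
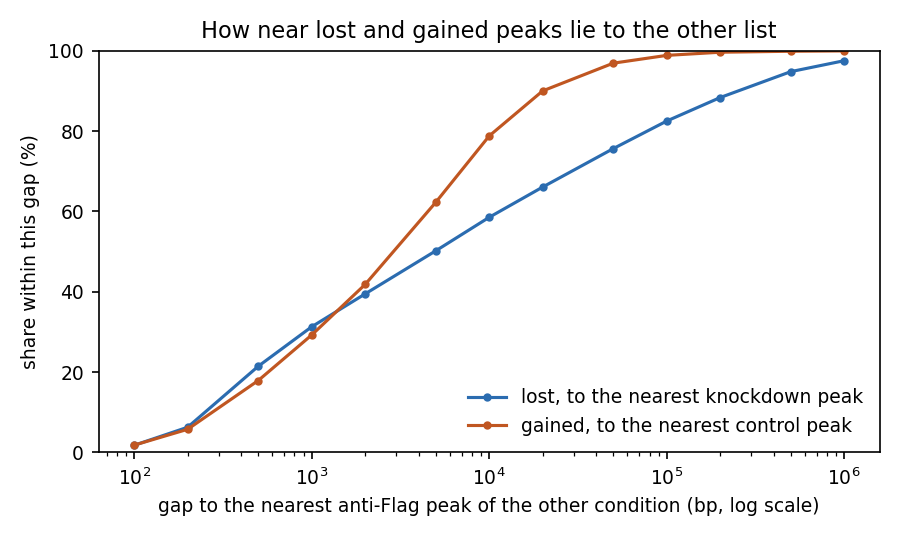
Cumulative share of lost and gained Flag peaks (percent) by gap to the nearest Flag peak of the other condition, on a log axis in bp. The curves cross between 1 kb, where lost peaks lead (31.3% against 29.2%), and 10 kb, where gained peaks lead (78.8% against 58.5%).

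The chromosomes differed in the balance of the 2 classes. The gained share ran from 17.4% of knockdown peaks on chromosome 18 to 48.6% on chromosome 11, and the lost share from 28.5% of control peaks on chromosome 8 to 53.0% on chromosome 13. Chromosomes 19, 17 and 16 followed chromosome 11, with 48.4%, 47.7% and 45.7% of knockdown peaks gained. Together chromosomes 19, 17, 11 and 16 held 52.0% of gained peaks and 44.3% of all knockdown peaks, and 28.7% of lost peaks and 35.6% of all control peaks. These chromosomes were named for their gained share, so the values are a description.

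**Figure D4:**
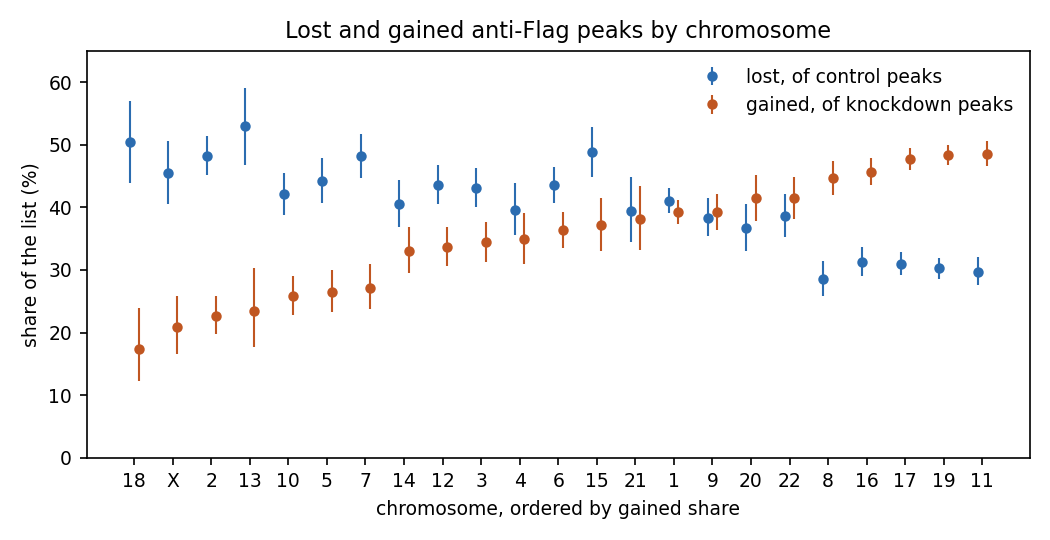
Share of control Flag peaks lost and of knockdown Flag peaks gained (percent) on each chromosome, ordered by gained share, with 95% Wilson intervals. Chromosome 11 has the highest gained share (48.6%) and chromosome 13 the highest lost share (53.0%).

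Gene-rich windows carried the gained peaks. In the 1 Mb around a peak the median number of protein-coding genes was 21 for kept control, 14 for lost and 27 for gained peaks, and 40 or more genes were found around 15.0%, 7.48% and 20.4%. Of 1868 windows of 1 Mb with a Flag peak, 1291 had more lost than gained peaks, 297 had more gained than lost and 280 had equal numbers. It took 56 windows to hold 50% of the gained peaks, 119 to hold 50% of the kept control peaks and 260 to hold 50% of the lost ones. The window with the most gained peaks, chr8:144000001-145000000, held 240 gained, 15 lost and 197 kept control peaks. On chromosome 17 the window chr17:82000001-83000000, which includes the fatty acid synthase gene FASN, held 230 gained and 20 lost peaks. The window chr11:65000001-66000000 held 228 gained peaks and, with 39, also the most lost peaks of any window.

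Unbroken runs of one class were seen in both directions. The longest gained run was 27 regions over 104.026 kb (chr11:64366719-64470744) around RPS6KA4, a stress-activated kinase gene, and the next was 22 regions over 84.997 kb at TOP6BL (chr11:66755739-66840735). The longest lost run was 12 regions spread over 4401.74 kb (chr6:21587621-25989361), a stretch that includes SOX4, a transcription factor of progenitor cells. A denser lost run of 10 regions within 77.104 kb lay at MBP on chromosome 18 (chr18:77057160-77134263).

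Of 19974 protein-coding genes, 10504 (52.6%) had a Flag peak in the gene or within 10 kb. A kept control peak was found at 7469 (37.4%), a lost peak at 6968 (34.9%) and a gained peak at 4945 (24.8%). Flag peaks in control alone were found at 2068 genes (10.4%) and in knockdown alone at 483 (2.42%), although the knockdown list was the longer. A peak can be counted at several neighbouring genes, and long genes have more room for peaks.

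At the gene lists that follow, a peak shared by neighbouring genes of a list was counted once in the list total. The shares of all Flag peaks, 37.9% lost and 40.8% gained, and of all genes, just given, are the values to read them against. The lists are small, and the intervals of their peak shares are wide.

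Of 18 genes of RUNX1 and its partners 14 had a Flag peak (77.8%), 11 a kept control peak (61.1%), 9 a lost peak (50%) and 11 a gained peak (61.1%). Of their 71 control peaks 36.6% were lost (26.4 to 48.2), near the overall 37.9%, and of their 80 knockdown peaks 31.2% were gained (22.2 to 42.1). RUNX1, which supplies the DNA-binding portion of the fusion, went from 19 to 16 peaks, with 10 lost and 3 gained. CBFB, the partner that stabilises RUNX proteins on DNA, went from 5 to 11 peaks, with 2 lost and 7 gained. Its 3 kept control peaks met 4 knockdown peaks. The gained CBFB peaks were 167 to 522 bp wide, and that of 167 bp alone overlapped an anti-ETO peak, in knockdown. TCF12, an E protein that AML1-ETO binds, had 1 peak, which was lost, although both anti-ETO lists had a peak there. ERG, a transcription factor of stem cells, had 1 gained peak of 177 bp and none in control. RUNX1T1, which supplies the ETO portion, and the haematopoietic regulators TAL1 and GATA2 had no Flag peak in either list.

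The NCoR and histone deacetylase genes encode the corepressors that ETO recruits. Of 14, 12 had a Flag peak (85.7%, against 52.6% of all genes), 10 a kept one (71.4%, against 37.4%), 9 a lost one (64.3%, against 34.9%) and 7 a gained one (50%, against 24.8%). Of their 75 control peaks 25.3% were lost (16.9 to 36.2) and of their 78 knockdown peaks 24.4% were gained (16.2 to 34.9). At HDAC3, the deacetylase of the NCoR complex, the 1034-bp control peak at its start (chr5:141636137-141637170) was lost, although both anti-ETO lists had a peak there. TBL1X and TBL1XR1, exchange subunits of NCoR, had no Flag peak in either condition. The series title names TBL1XR1 beside the miR-130a targets.

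Myeloid regulators held kept, lost and gained sites. Of 18, 15 had a Flag peak (83.3%, against 52.6% of all genes), 9 a kept one (50%, against 37.4%), 9 a lost one (50%, against 34.9%) and 6 a gained one (33.3%, against 24.8%). Of their 36 control peaks 38.9% were lost (24.8 to 55.1), near the overall 37.9%, and of their 33 knockdown peaks 24.2% were gained (12.8 to 41.0). SPI1 (PU.1, a master regulator of myeloid fate) kept its 4 control peaks and gained 1, and CEBPA, which drives granulocyte formation, kept 2 and gained 1. GFI1, a transcriptional repressor that acts in neutrophil precursors, kept 3. CEBPB, a factor of emergency granulopoiesis, lost both of its peaks. The peak of 510 bp at its start (chr20:50190543-50191052) overlapped an anti-ETO peak in each condition. The other, of 401 bp and centred 4180 bp from the start (chr20:50186203-50186603), overlapped one in control alone. The nearest knockdown Flag peak lay 6669 bp from the latter. CEBPD, a related factor, lost 2 peaks of 1661 and 1280 bp (chr8:47734704-47736364 and chr8:47738016-47739295), both over an anti-ETO peak in each condition and 223940 and 221009 bp from the nearest knockdown Flag peak. The 1280-bp peak lay in CEBPD, and the 1661-bp peak lay within 10 kb of it and overlapped SPIDR.

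Granule protein genes, which neutrophil precursors express, held 37 control peaks, of which 9 were lost (24.3%, 13.4 to 40.1, against 37.9% overall), and 40 knockdown peaks, of which 15 were gained (37.5%, 24.2 to 53.0, against 40.8%). AZU1 went from 7 to 10 peaks with 6 gained, among them the 1616-bp peak at its start (chr19:826145-827760), which no anti-ETO peak overlapped. ELANE, which encodes neutrophil elastase, went from 13 to 14 peaks with 2 lost and 4 gained. AZU1 and ELANE are neighbours with PRTN3, and the counts per gene include peaks they share. MPO (myeloperoxidase) went from 6 to 5 with 2 lost and 2 gained, and its widest peak, of 2761 bp in control, was kept. CTSG (cathepsin G) had 1 peak, which was lost.

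Stem cell genes had 16 of 32 control peaks lost (33.6% to 66.4%, against 37.9% overall) and 9 of 26 knockdown peaks gained (34.6%, 19.4 to 53.8, against 40.8%). CD34, the progenitor surface marker, lost its 2 peaks of 400 and 648 bp, the latter over an anti-ETO peak in each condition. FLT3, a growth factor receptor of progenitors, lost the 504-bp peak at its start (chr13:28100364-28100867), 38770 bp from the nearest knockdown Flag peak. A knockdown anti-ETO peak overlapped the lost FLT3 peak. KIT, the stem cell factor receptor, kept 2 peaks, lost 1 and gained 1. ID1, an inhibitor of E proteins, lost 3 of 4 peaks.

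Among the signalling genes some had many fewer Flag peaks in knockdown and others more. PLCG2, a phospholipase of immune receptors, went from 15 to 7 peaks with 9 lost and 1 gained, and UBASH3B, a phosphatase, from 11 to 6 with 6 lost and 0 gained. VAV1, a signalling protein of blood cells, went from 28 to 38 peaks with 5 lost and 16 gained. Over all 16 genes 32.5% of 83 control peaks were lost (23.4 to 43.2, against 37.9% of all Flag peaks). Of their 81 knockdown peaks 29.6% were gained (20.8 to 40.3, against 40.8%).

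All 16 cell cycle and survival genes had a Flag peak, 12 a kept one (75.0%, against 37.4% of all genes), 12 a lost one (75.0%, against 34.9%) and 7 a gained one (43.8%, against 24.8%). Of their 49 control peaks 40.8% were lost (28.2 to 54.8), near the overall 37.9%. BCL2, CCND3 and PCNA had kept promoter peaks. CDKN1A (p21, which halts the cell cycle) lost 2 peaks, and RB1 and the survival genes MCL1 and BCL2L1 had 1 peak each, which was lost. Both anti-ETO lists had a peak at the lost MCL1 and BCL2L1 sites, and neither had one at the lost RB1 site. The MCL1 and RB1 peaks lay outside the genes, within 10 kb. Of the AP-1 and immediate early genes 11 of 14 had a Flag peak (78.6%, against 52.6% of all genes). Of their 64 control peaks 26.6% were lost (17.3 to 38.5, against 37.9% of all Flag peaks). Of their 68 knockdown peaks 26.5% were gained (17.4 to 38.0, against 40.8%). JUNB, an AP-1 subunit, went from 10 to 11 peaks with 1 lost and 2 gained, and FOSB lost 3 and gained 3. Of the TGF-beta and SMAD genes 14 of 16 had a Flag peak (87.5%, against 52.6% of all genes). A lost call was given to 31.4% of their 51 control peaks (20.3 to 45.0, against 37.9% of all Flag peaks). Gained calls made up 37.5% of their 56 knockdown peaks (26.0 to 50.6, against 40.8%). SKI, a corepressor of SMADs, went from 12 to 19 peaks with 3 lost and 11 gained. Among the receptors TGFBR2 and ACVR1 had 1 peak each, which was lost, and ACVR1B lost both of its 2. TGFBR1 kept 4 of 5 control peaks and BMPR2 kept 1 of 2. Genes of other tissues were the list with the fewest sites: 8 of 20 had a Flag peak (40%, against 52.6% of all genes). Lost calls were given to 9 of their 14 control peaks (38.8% to 83.7%, against 37.9% of all Flag peaks). Gained calls were given to 0 of their 5 knockdown peaks (0 to 43.4%, against 40.8%). With so few peaks both intervals are wide.

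**Figure D5:**
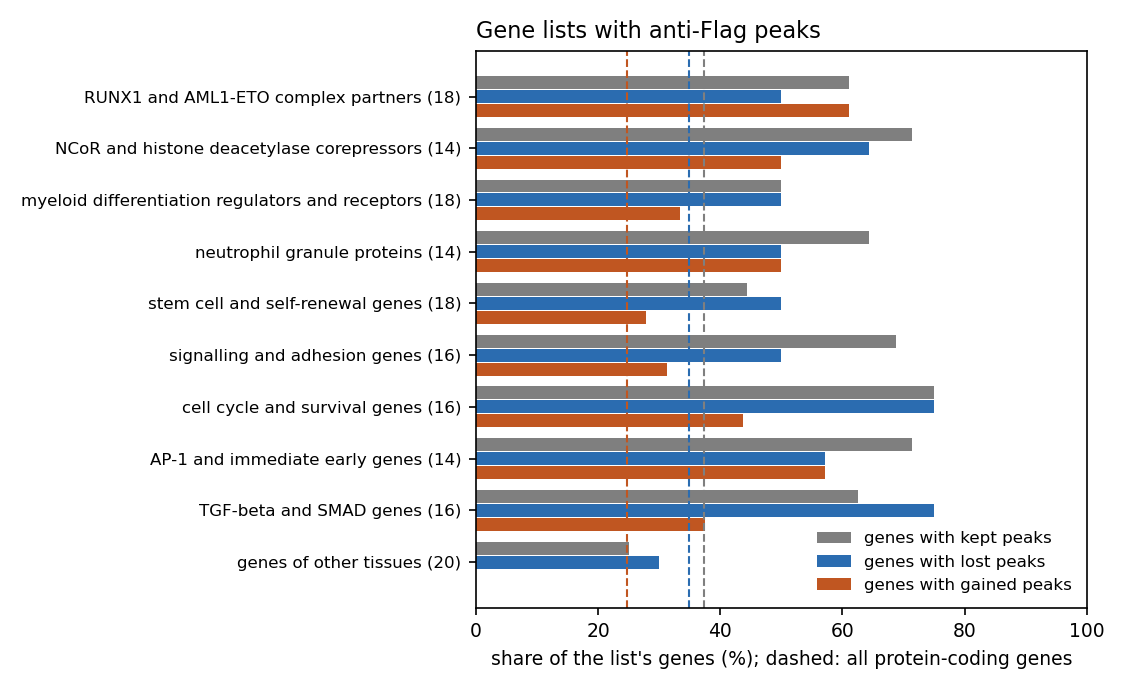
Share of the genes of each list (percent, number of genes in brackets) with at least 1 kept control, lost or gained Flag peak in the gene or within 10 kb; dashed lines give the same over all protein-coding genes. Genes of other tissues are the list below all 3 lines (25% kept, 30.0% lost and 0 gained, against 37.4%, 34.9% and 24.8%).

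At promoters, the 300-base windows of 3776 of 15812 protein-coding genes (23.9%) held a kept Flag peak, those of 1352 (8.55%) a lost peak alone and those of 255 (1.61%) a gained peak alone. Among the 123 list genes with a window 42 held a kept Flag peak, 12 a lost one alone, 6 a gained one alone and 63 none. The 42 include RUNX1, RUNX2, RUNX3, MYB, CEBPA and GFI1. TCF12, GPS2, HDAC3, CEBPB, CTSG, FLT3, ID1, NOTCH1, CDKN1A, BCL2L1, ACVR1 and SMAD6 had a lost one alone. The lost peaks at the NOTCH1 and GPS2 starts lay 50 and 212 bp from a knockdown Flag peak. Those at the HDAC3 and FLT3 starts lay 15452 and 38770 bp from one. A lost peak alone can thus mean a nearby site and not an empty promoter. SIN3B, FCGR1A, AZU1, KIT, CDKN2C and FOSB had a gained one alone. The gained peak at the KIT start, of 189 bp, lay 668 bp from a control Flag peak that was kept. That at the SIN3B start lay 25454 bp from a control Flag peak. The gained CDKN2C peak, of 165 bp, overlapped an anti-ETO peak in each condition. A gained peak alone can thus also lie beside or over a site already called in control. FCGR1A has near-identical copies, so reads there are uncertain.

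Genes whose Flag peaks were all lost, with at least 4, numbered 29. How many genes had at least 4 Flag peaks is not given here. Neither this count nor that of all-gained genes below can therefore be read as a share. With any number of peaks, 2068 of 19974 protein-coding genes (10.4%) had them in control alone and 483 (2.42%) in knockdown alone. DBNL, an actin-binding adaptor gene, had 7, and SPTBN1, a spectrin gene, and ZFAT had 6 each. H2AC12, SLC29A1, TULP2 and ZNF516 had 5. Genes whose peaks were all gained, by the same rule, numbered 11. MBD3L2B and MBD3L5 had 6 each but are near-identical copies of one another, so their counts are uncertain. HBM, a globin gene, and MUC2, a mucin gene, had 5 each, and MUC5B and RPL27 had 4. The genes with the most kept control peaks were BAHCC1 (44 of 47), GSE1 (31 of 45, with 28 gained), IQANK1 (31 of 32), SEPTIN9 (31 of 36, with 30 gained) and PLEC (30 of 31), the gene of the cytoskeletal linker plectin. ARHGAP39 kept 24 of 26 and gained 54.

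The MIR130A gene itself lay apart from these sites. Its hairpin (chr11:57641198-57641286, plus strand) was 16025 bp from the nearest control Flag peak and 15973 bp from the nearest knockdown one.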

How the data were processed

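CUT&RUN peak lists of 4 groups (anti-Flag and anti-ETO, control and miR-130a knockdown) were used, 1 list per group as deposited by the authors, holding chromosome, start and end with no height or p-value. Derived intersections and the IgG libraries were not used. The submitters' processing notes name fastp 0.19.5, Bowtie2 2.3.5, MACS2 2.2.5, HOMER 4.8 and the builds hg38 and sacCer3. Roles, the peak threshold, the use of IgG and the handling of the 3 libraries per group are not given in the sources used here, and the depth of each library is unknown. As a build check, 27.0% of control peaks met a RefSeq promoter window, against 1.70% to 2.33% after shifts of 100000 or 1000000 bp.

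Overlaps of at least 1 bp were found with pandas 2.3.3 and numpy 2.4.6 (Python 3.11.15, scipy 1.17.1; figures with matplotlib 3.10.9) and equalled those of bedtools 2.31.1 in 4 of 4 comparisons. On simulated data 1200 of 1200 planted overlaps were found. Shares have 95% Wilson intervals and differences 95% Newcombe intervals. No test over peaks or genes was made, since peaks are not replicates. Genes came from RefSeq GRCh38.p14; gene starts were 34961 starts of 27195 genes, with none on chromosome 8, so start distances used 22172 control and 24706 knockdown peaks. Of the 160 genes in 10 lists, all 160 matched and 123 had a promoter window. Named genes were those of the lists, and the 10 with most peaks among genes with all peaks lost, all gained (at least 4) or most kept. The members, lists and rules were chosen with earlier results of these data known. Alternatives changed the overlap, list length, distances and chromosomes.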

Additional observations from a re-analysis of the deposited data

How the results depend on the processing

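Over 13 results, 75 alternatives were run. None of the differences changed direction, while shares and counts have no direction to change. The margin was the 95% interval of a share or difference, 1.5 times a count or 1 bp of a width. Of the 75, 34 stayed within it and 41 moved. Keeping chromosomes 1 to 22 and X alone left every value as it was, because all Flag peaks lay there. Its share of the 34 was therefore fixed beforehand. Within the count margin, control-only genes ran from 1762 to 2418 (main 2068), knockdown-only genes from 351 to 653 (main 483) and list genes with a Flag peak from 98 to 131 (main 122). Requiring 100 bp of overlap gave 60.6% of control peaks kept, 42.3% of knockdown peaks gained and a control anti-ETO difference of 30.6 points. Requiring 50% of both peaks gave 41.1% kept, 63.3% gained, a near-start difference of -13.4 points, anti-ETO differences of 27.0 (control) and 44.6 (knockdown), a neighbour difference of -13.5, a chromosome difference (gained minus lost on chromosomes 19, 17, 11 and 16; main 23.2) of 14.3 and width differences of 186 bp (kept minus lost) and 208 bp (kept minus gained). Joining peaks up to 500 bp apart gave 70.3% kept, 33.5% gained, a control anti-ETO difference of 26.3, a neighbour difference of -24.3 and a chromosome difference of 26.3. The wider 50% of each list gave 63.8%, 39.5%, anti-ETO differences of 15.4 and 45.3, a neighbour difference of -28.4 and a chromosome difference of 25.01. The knockdown list shortened to the control length gave 58.0%, 38.9%, a near-start difference of -25.6, a control anti-ETO difference of 25.1, a neighbour difference of -16.4 and width differences of 241 and 180 bp. A neighbour distance of 50 kb gave -11.8. The alternatives for control-only and knockdown-only genes, given above, were not planned beforehand. Both following alternatives were chosen after seeing the data. Without chromosomes 8, 11, 16, 17 and 19 the values were 57.1% kept, 34.3% gained, anti-ETO differences of 33.2 and 61.9 and a neighbour difference of -14.9. In 5 groups of peak width, narrowest first, the near-start difference was -25.8, -20.3, -17.2, -27.2 and -32.6 points. Except where a setting lengthens or shortens the lists or the overlap, the cause was not tested. No paired analysis was possible because each group was deposited as 1 list that names no library, and leaving out a library was not possible for the same reason. A lost or gained call near the unknown peak threshold cannot be told from a small change in signal.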
